A study of Mus musculus with 13 samples.

Results

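Oxidative phosphorylation makes ATP in the inner membrane of mitochondria. Complexes I to IV pass electrons from NADH and succinate to oxygen and, except for complex II, pump protons, and complex V (ATP synthase) uses the proton gradient to make ATP. Most subunits are encoded in the nucleus and a small set in the mitochondrial genome, so a working chain needs both. Microglia are the resident macrophages of the spinal cord, and astrocytes are glia that supply neurons with metabolites and clear transmitter. The genes described here are the nuclear-encoded subunits, taken by name: symbols that start with Nduf followed by a, b, c, s or v and a digit, with Uqcr, with Cox4 to Cox8 or with Atp5, and Sdha, Sdhb, Sdhc and Sdhd. Of 39171 genes in the table, 98 entries match these names, and 86 remained once 12 pseudogenes were left out. Complex I has 35 of them, complex II 4, complex III 8, complex IV 21 and complex V 18. Ndufa4 and its paralog Ndufa4l2 are counted with complex IV. Atp5s and Dmac2, which the file lists as Atp5sl, carry the Atp5 name but are not structural subunits. Gm11273, a further entry listed under the symbol Cox5b, was kept because the annotation does not class it as a pseudogene. Nuclear subunits with other names, among them Cyc1, Ndufab1 and Usmg5, fall outside the rule and were counted in a separate list.

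RNA was sequenced from cells sorted by flow cytometry from spinal cords of C57BL/6 mice. Astrocytes carried green fluorescent protein under Aldh1l1 and were sorted by it, and microglia were sorted by the surface protein CD11b, which border macrophages and monocytes also carry. The mice lacked Il33 (KO), the gene of the cytokine interleukin-33, or were WT littermates. There were 3 WT and 3 KO microglia libraries, all from postnatal day 12. There were 3 WT and 4 KO astrocyte libraries, all from day 12 except WT library 3 and KO library 2, which were from day 9. The series' design text calls the libraries of a group biological replicates. The sources used here do not say whether animals were pooled.

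Values are FPKM, fragments scaled to transcript length and library size, by a method that is not stated. A level is relative to other RNA of its library, and lower RNA per cell cannot be told apart from more RNA of other genes. FPKM summed to 1.19e+06 to 1.43e+06 in microglia libraries and 1.68e+06 to 3.84e+06 in astrocyte libraries. The gene with the most FPKM held 11.6% to 32.5% of the sum in microglia and 26.6% to 38.9% in astrocytes. Il33 was at 96.3, 113 and 108 FPKM in WT astrocytes, between 0.42 and 2.28 in KO astrocytes, and at most 1.26 in microglia. The 8 astrocyte markers summed to 5677 to 10120 FPKM in astrocytes and 62.1 to 98.3 in microglia. Of these markers, Slc1a2 was listed at 0 in 1 of 3 WT and 1 of 4 KO astrocyte libraries, and it reached 3996 FPKM in WT and 3352 in KO astrocytes. The 8 microglia markers summed to 7142 to 7960 in microglia and 8.71 to 48.1 in astrocytes. Markers of oligodendrocytes, the myelinating cells, were present in both sorts: they summed to 4181 to 7733 in astrocytes and 1012 to 2459 in microglia, most of it from Mbp, the gene of myelin basic protein. Relative depth, read from the steps of the low values, was 68.4% to 100% of the deepest library in microglia and 33.7% to 63.0% in astrocytes. Such steps follow sequencing depth only if values were scaled to the fragments of each library.

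The upstream sequences of 5 subunit genes show the kinds of promoter that the genes have. They are the 200 bases before the RefSeq start, on GRCm38.p6, written 5′ to 3′ on the strand of the gene. Atp5g3 encodes the c subunit of the proton-driven rotor of ATP synthase, Uqcrh the hinge protein of complex III and Ndufs5 an accessory subunit of complex I. Cox7a2 and Cox7a2l are paralogs of complex IV whose balance differed between the cell types. Capitals mark a match to 1 of 4 motifs of factors known to act on these genes. They are the NRF1 motif (GCGCA and GCGC with any base between them), the ETS motif CCGGAAG of factors such as GABP, the YY1 motif AANATGGCG and the estrogen-related receptor (ERR) motif AAGGTCA, each searched on both strands.
Atp5g3, chr2:73911327-73911526, minus strand, ERR match: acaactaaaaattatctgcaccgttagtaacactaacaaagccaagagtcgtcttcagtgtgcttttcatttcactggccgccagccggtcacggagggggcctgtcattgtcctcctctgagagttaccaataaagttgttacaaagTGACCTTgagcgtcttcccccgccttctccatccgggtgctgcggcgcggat
Uqcrh, chr4:116075071-116075270, minus strand, ETS match: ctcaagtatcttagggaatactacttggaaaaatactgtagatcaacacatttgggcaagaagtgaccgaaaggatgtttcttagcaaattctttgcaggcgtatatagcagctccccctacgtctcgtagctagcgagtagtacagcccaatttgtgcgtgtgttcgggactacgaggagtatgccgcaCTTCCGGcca
Ndufs5, chr4:123718187-123718386, minus strand, NRF1 match: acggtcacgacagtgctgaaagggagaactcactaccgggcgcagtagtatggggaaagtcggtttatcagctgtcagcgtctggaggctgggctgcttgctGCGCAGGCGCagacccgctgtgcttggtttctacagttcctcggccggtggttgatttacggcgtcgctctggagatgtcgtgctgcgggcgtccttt
Cox7a2, chr9:79759854-79760053, minus strand, no match: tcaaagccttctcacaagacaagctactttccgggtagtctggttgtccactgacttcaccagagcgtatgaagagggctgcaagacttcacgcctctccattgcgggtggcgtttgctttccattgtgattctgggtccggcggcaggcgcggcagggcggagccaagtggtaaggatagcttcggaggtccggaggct
Cox7a2l, chr17:83514334-83514533, minus strand, no match: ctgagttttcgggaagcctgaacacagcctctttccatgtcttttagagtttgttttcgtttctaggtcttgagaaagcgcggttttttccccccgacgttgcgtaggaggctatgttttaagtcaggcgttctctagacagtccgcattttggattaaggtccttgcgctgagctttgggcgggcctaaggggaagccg

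RefSeq promoters, from 250 bases before to 50 after the start, were matched by symbol for 67 of the 86 genes. The NRF1 motif was in 16 of them (23.9%), against 4.78% of all 27025 promoters of that length and 10.7% of 9761 promoters of protein-coding genes expressed here. The ETS motif was in 15 (22.4%, against 9.12% and 18.3%), the YY1 motif in 9 (13.4%, against 2.51% and 5.37%) and the ERR motif in 8 (11.9%, against 4.66% and 3.04%). At least 1 of the 4 was in 36 of 67 (53.7%, against 18.9% and 32.6%). A TATA box, TATAAA, was in 7 (10.4%, against 14.2% and 6.77%). These are matches of letters in a window and say nothing of binding.

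Of the 86 genes, 81 had a mean of at least 1 FPKM over the 13 libraries and entered the tests of both cell types together, and 77 were above 0 in every library. Cox4i2, Cox8c, Ndufa4l2 and Gm11273 were below 1 FPKM on average in both cell types. The first 3 are minor forms of subunits that Cox4i1, Cox8a and Ndufa4 supply here. Cox4i2, which is known from lung and hypoxia, reached 2.67 FPKM in KO microglia library 1 and 1.25 in the day 9 KO astrocytes, and was lower elsewhere. The fifth gene below the limit is Cox7b2, the testis form of Cox7b. It was listed at 0 in all 6 microglia libraries and was at 0.516 to 2.98 FPKM in astrocytes.

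Subunit levels were several times higher in astrocytes than in microglia. The median subunit was at 41.9, 40.0 and 37.8 FPKM in the 3 WT microglia libraries and at 38.4, 37.1 and 35.6 in KO microglia. It was at 194, 196 and 169 in WT astrocytes and at 223, 160, 219 and 195 in KO astrocytes. No microglia library came near any astrocyte library, and the lowest value of each astrocyte group was its day 9 library. The 86 genes together held 1.38% to 1.64% of the FPKM of nuclear protein-coding genes in microglia and 5.66% to 7.61% in astrocytes. The median of all protein-coding genes of at least 1 FPKM was nearly the same in both, at 7.43 to 8.04 in microglia and 8.11 to 8.53 in astrocytes. How the FPKM were scaled is not stated, and whether the scaling set this likeness was not tested.

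**Figure D1:**
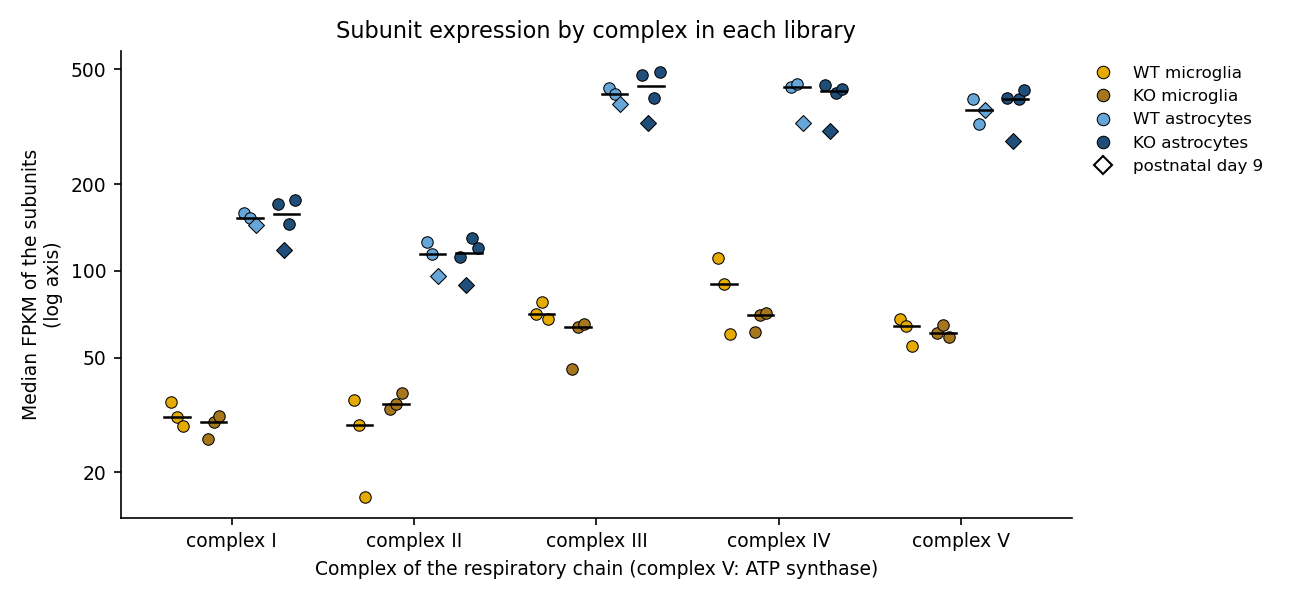
Median FPKM (log axis) of the subunit genes of each complex in each library, one point per library, with a line at the group median. Circles are postnatal day 12 and diamonds day 9. In all 5 complexes every microglia library lies below every astrocyte library.

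WT microglia were compared with WT astrocytes, and KO with KO, by limma in a single fit of all 13 libraries on log2(FPKM + 1), with the postnatal day as a covariate. A call needs a Benjamini-Hochberg adjusted p under 0.05 over all 16258 genes. Between WT cells, 76 of the 81 genes were lower in microglia and 0 higher, where 24.5% of all genes tested were lower and 29.1% higher. Between KO cells 76 were lower and 1 higher, where 25.1% of all genes were lower and 31.9% higher. The median difference of the 81 was -2.34 between WT cells, a ratio of 5.07, and -2.52 between KO cells, a ratio of 5.72. The medians of all genes were 0.21 and 0.24. Rescaling the libraries to a sum without mitochondrial and small RNA genes moved the medians of all genes to 1.17 and 0.81 and those of the members to -1.18 and -1.85, with 60 members lower and 2 higher between WT cells and 74 lower and 1 higher between KO cells. With quantile normalisation 43.3% of all WT calls were higher in microglia, against 54.3% as reported, and 76 members were lower. The libraries of the groups did not overlap, with microglia lower, for 76 of 81 genes in WT (25.7% of all genes) and 78 in KO (28.1%). With microglia higher there was 1 in KO, Cox6a2 (34.2% of all genes). Oligodendrocyte markers were also higher in the astrocyte sort, in the ranges given above. Marker sums of other cells reached higher values in astrocytes with overlapping ranges: neuron markers were at 28.9 to 307 FPKM in astrocytes and 4.62 to 48.8 in microglia, endothelial and mural markers at 25.7 to 84.3 and 21.8 to 34.0, and erythroid markers at 6.81 to 116 and 0.31 to 26.8. The part of these cells in the result was not tested.

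The difference was present in every complex. Complex III had the largest median between WT cells, -2.82, with all 8 genes called, followed by complex IV at -2.61 (12 of 16), complex V at -2.38 (17 of 18), complex I at -2.26 (35 of 35) and complex II at -1.93 (4 of 4). Between KO cells the medians were -2.58, -2.70, -2.38, -2.37 and -1.81 in the same order. The order of complexes III and IV was thus different in the 2 genotypes, while complex II was the least different in both. Over the 77 genes that are not minor paralogs, the ratio of the mean in astrocytes to that in microglia had a median of 4.93, and it was between 3 and 8 for 58 of them. Across the 81 genes the WT and KO differences had a Pearson correlation of 0.902, as a description over genes that share libraries within each genotype and a fit between them.

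**Figure D2:**
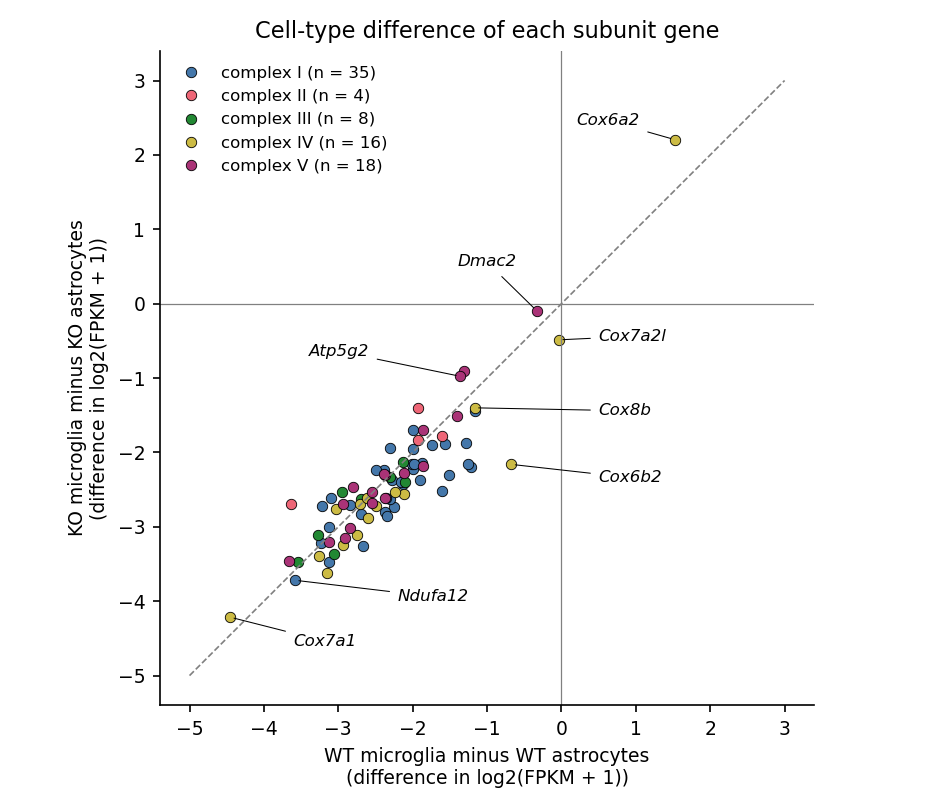
Difference between microglia and astrocytes of each of the 81 tested genes, in WT (horizontal) and KO (vertical), on the log2(FPKM + 1) scale, coloured by complex. The dashed line marks equal differences. Most genes lie between -1 and -4 on both axes, with Cox6a2 alone above 0.

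In complex I, which takes electrons from NADH, the 7 core subunits had a median of 35.8 FPKM in microglia and 161 in astrocytes, and the 28 accessory subunits 29.6 and 161. Ndufa12, an accessory subunit (chr10:94198720-94221443), had the largest ratio of the 77, at 12.4. In WT microglia it was at 19.9, 16.7 and 24.6 FPKM, with 17.6, 21.6 and 18.8 in KO microglia, 232, 277 and 204 in WT astrocytes and 259, 217, 235 and 307 in KO astrocytes. The 2 cell types are far apart and the genotypes overlap within each. Its limma difference was -3.59 ± 0.19 (SE, adjusted p = 1.1e-07) between WT cells and -3.72 ± 0.18 (adjusted p = 3.9e-08) between KO cells. Ndufs1, the core subunit that holds iron-sulfur clusters of the electron path, was the lowest core gene in both, with 10.96 FPKM on average in microglia and 45.3 in astrocytes. Ndufs5, whose NRF1 match is shown above, was at 11.9 to 18.1 FPKM in microglia and 64.9 to 135 in astrocytes, a difference of -2.70 ± 0.26 between WT cells. The highest and the lowest accessory gene were the same in both cell types, Ndufa3 (135 and 625) and Ndufa11 (4.90 and 23.3).

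Complex II, succinate dehydrogenase, belongs to both the chain and the citric acid cycle. Sdha, its flavoprotein, was at 38.2, 42.1 and 40.8 FPKM in the WT microglia, 61.2, 51.7 and 51.4 in KO microglia, 153, 161 and 104 in WT astrocytes and 128, 98.4, 172 and 140 in KO astrocytes. Microglia were lower throughout, by -1.93 ± 0.16 (limma, adjusted p = 3.27e-06) between WT cells and -1.401 ± 0.15 (adjusted p = 1.69e-05) between KO cells. The membrane anchor Sdhc differed more, by -3.64 ± 0.40 between WT cells and -2.69 ± 0.37 between KO cells. Its WT microglia libraries were spread from 11.5 to 42.2 FPKM.

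In complex III, which reduces cytochrome c, the Rieske iron-sulfur protein Uqcrfs1 was at 11.8 FPKM in microglia and 106 in astrocytes, and the core protein Uqcrc1 at 20.1 and 85.7. Uqcrh, with the ETS match, was at 83.3 to 178 and 425 to 660, a difference of -2.30 ± 0.27 between WT cells. Uqcr10, a small accessory subunit, was among the 5 most abundant members in astrocytes. It was at 217, 123 and 71.8 FPKM in the WT microglia, 154, 115 and 136 in KO microglia, 1379, 1493 and 1195 in WT astrocytes and 1810, 1128, 1355 and 1409 in KO astrocytes. The WT microglia libraries were the most uneven of the 4 groups in ratio and still lay far below the astrocytes.

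In complex IV, cytochrome c oxidase, the ubiquitous subunits Cox4i1, Cox6a1 and Cox7b were among the 5 most abundant members in both cell types. Cox6a1 was at 243, 220 and 230 FPKM in the WT microglia, 170, 202 and 211 in KO microglia, 1480, 1517 and 1256 in WT astrocytes and 1964, 1147, 1411 and 1872 in KO astrocytes. Its difference was -2.75 ± 0.17 between WT cells (limma, adjusted p = 3.84e-07) and -3.11 ± 0.16 between KO cells (adjusted p = 7.18e-08). Cox4i1, whose exons overlap Emc8 on the other strand by 154 bases, differed by -2.24 ± 0.33 and -2.53 ± 0.31. Ndufa4, first described as part of complex I, was at 80.5 FPKM in microglia and 753 in astrocytes.

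In complex V, Atp5b, the catalytic beta subunit (chr10:128083273-128090391), was the most abundant member of all in both cell types. It was at 734, 649 and 697 FPKM in the WT microglia, 574, 633 and 664 in KO microglia, 4970, 4602 and 3961 in WT astrocytes and 5293, 3500, 5167 and 4969 in KO astrocytes. With -2.84 ± 0.14 between WT cells (limma, adjusted p = 6e-08) and -3.01 ± 0.13 between KO cells (adjusted p = 1.7e-08), it had the smallest p of the 81 genes in both comparisons. Small RNA genes lie in its introns (Snord59a and Mir677). Atp5o, part of the stalk that holds the catalytic head, had a ratio of 11.2. Among the 81 genes the mean levels in the 2 cell types had a Pearson correlation of 0.896 on the log2 scale, so members that are abundant in astrocytes were mostly those abundant in microglia.

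The genes that were not lower in microglia were few. Dmac2 was at 10.5 FPKM in microglia and 10.6 in astrocytes, and Cox7a2l at 136 and 160. Neither was called in WT (-0.33 ± 0.41, adjusted p = 0.507, and -0.04 ± 0.37, adjusted p = 0.953, by limma) or in KO (-0.09 ± 0.37, adjusted p = 0.854, and -0.49 ± 0.34, adjusted p = 0.243). The 95% interval of the Cox7a2l difference ran from -0.85 to 0.78 in WT and from -1.24 to 0.26 in KO. Cox8b and Cox6b2, muscle and testis forms, were at most 5.28 and 21.6 FPKM with wide spread and were not called either, although Cox8b was called lower without WT astrocytes library 2 (-1.99, adjusted p = 0.0367) or KO astrocytes library 2 (-1.76, adjusted p = 0.0114), and Cox6b2 in KO with only the 2 groups compared in the fit (-2.38, adjusted p = 0.0215). Cox6a2, the heart and muscle form of Cox6a1, was the only member called higher in microglia as reported. After rescaling without mitochondrial and small RNA genes, Cox7a2l was also called higher in WT microglia (1.13, adjusted p = 0.0277), a turn of its direction. Cox6a2 was at 10.03, 0.667 and 3.54 FPKM in WT microglia, at 10.9, 4.32 and 4.28 in KO microglia, and at most 1.149 in astrocytes. The difference of Cox6a2 was 2.21 ± 0.62 between KO cells (limma, adjusted p = 0.0107) and 1.52 ± 0.67 between WT cells (adjusted p = 0.0783). WT microglia library 2 had the low value, and without it the WT difference was 2.22 (adjusted p = 0.00922). Without WT microglia library 1, the highest of the 3, it was 0.86 (adjusted p = 0.252). With quantile normalisation the KO call was lost (1.58, adjusted p = 0.0653). Exons of Cox6a2 overlap those of Itgad, a gene on the other strand, by 70 bases, and no source used here says if strand was kept. Itgad was at 0.501 to 6.02 FPKM in microglia and 0 to 10.7 in astrocytes, ranges that overlap.

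Because nearly all members were lower in microglia, though by unlike factors, the balance within sets of paralogs was compared on shares, which do not depend on how libraries are scaled. A share is the FPKM of a gene as a percentage of the sum over its set. The 6 microglia and 7 astrocyte libraries were compared by a two-sided exact permutation test for 9 shares, adjusted over the 9. The smallest p this design can give is 0.00117. Shares of a set add up to 100%, so they are not independent, and no source used here says how reads that fit several paralogs were counted.

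The largest difference of the 9 shares was in the Cox7a set. Cox7a2 is a subunit of complex IV, Cox7a2l (also known as SCAF1) is a related protein that joins complexes III and IV in supercomplexes, and Cox7a1 is the heart and muscle form. Cox7a2l made up 85.3%, 75.9% and 80.0% of the set in WT microglia and 74.7%, 76.4% and 78.0% in KO microglia. In astrocytes it made up 38.9%, 18.8% and 49.3% in WT and 31.1%, 39.7%, 45.9% and 42.9% in KO. The cell types did not overlap, at 78.4% ± 3.85 (SD, n = 6) against 38.1% ± 10.3 (n = 7), with an exact permutation p = 0.00117 and an adjusted p = 0.0021. Cox7a2 was the reverse, at 21.3% ± 3.94 (n = 6) and 55.4% ± 6.84 (n = 7), with the same exact p. In FPKM, Cox7a2 was at 31.1, 56.4 and 25.5 in WT microglia and 47.2, 30.5 and 30.2 in KO microglia, against 180 to 316 in WT and 150 to 291 in KO astrocytes. Cox7a2l was at 101 to 186 in microglia and 95.5 to 210 in astrocytes, so the shift in share came with a lower Cox7a2 in microglia and overlapping levels of Cox7a2l. Cox7a1 was at most 1.24 FPKM in microglia and at 5.67 to 96.1 in astrocytes, with the highest value in WT library 2.

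The c ring of ATP synthase is built from 1 mature peptide that Atp5g1, Atp5g2 and Atp5g3 encode with different import signals. Atp5g2 made up 17.8%, 24.3% and 24.6% of the set in WT microglia and 20.6%, 29.0% and 25.9% in KO microglia. In astrocytes it made up 8.45%, 6.90% and 10.5% in WT and 7.89%, 7.75%, 7.42% and 7.57% in KO. The groups were apart, at 23.7% ± 3.99 (n = 6) and 8.06% ± 1.15 (n = 7), with an exact permutation p = 0.00117 and an adjusted p = 0.0021. Atp5g3, the major form, had a share of 55.2% ± 8.57 in microglia and 71.2% ± 3.98 in astrocytes (exact permutation p = 0.00233, adjusted p = 0.0035). Atp5g1 had 21.1% ± 7.07 and 20.7% ± 4.08 (exact permutation p = 0.914). As reported, all 3 genes were lower in microglia in both genotypes. Atp5g2 differed least, by -1.36 ± 0.30 between WT cells (limma, adjusted p = 0.00315) and -0.98 ± 0.28 between KO cells (adjusted p = 0.012). Rescaling without mitochondrial and small RNA genes ended both calls of Atp5g2, at -0.22 in WT (adjusted p = 0.665) and -0.31 in KO (adjusted p = 0.486). The KO call was also lost without KO microglia library 1 (-0.72, adjusted p = 0.0529) and when scaled to the nuclear protein-coding sum (-0.61, adjusted p = 0.0858). Atp5g3 differed by -3.12 ± 0.17 and -3.20 ± 0.16. Mir688 lies within an exon of Atp5g2 on the same strand.

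**Figure D3:**
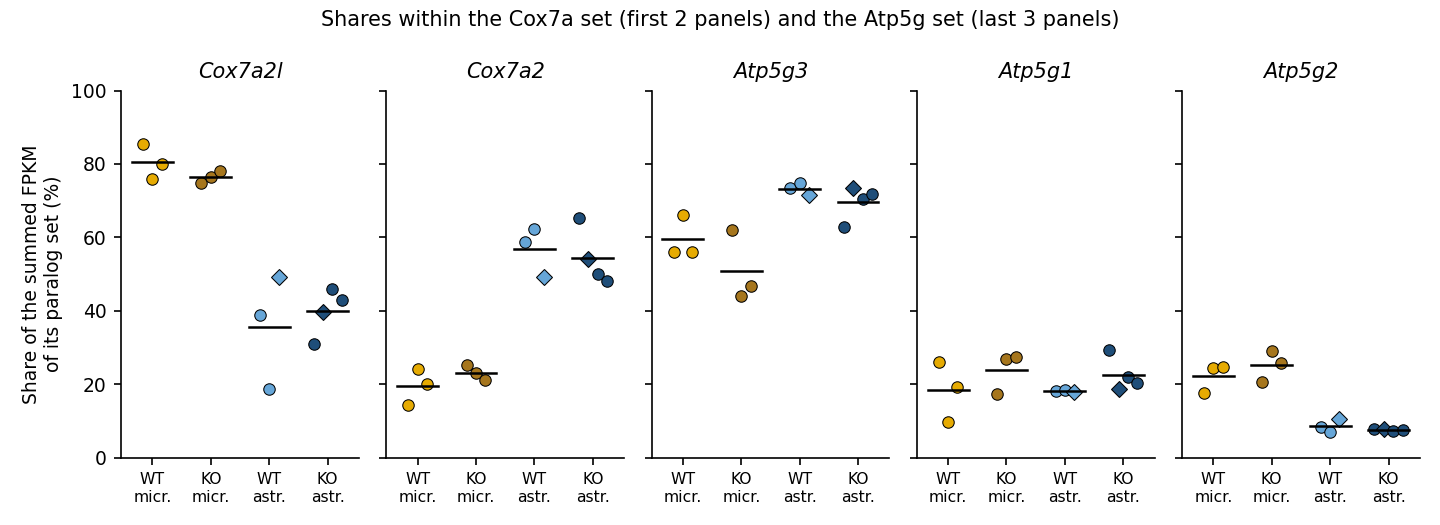
Share of the summed FPKM of its paralog set (percent) for Cox7a2l and Cox7a2 and for the 3 Atp5g genes, one point per library, with a line at the group mean, circles for day 12 and diamonds for day 9. Cox7a2l lies above 74% in microglia and below 50% in astrocytes, and Atp5g2 above 17% in microglia and below 11% in astrocytes.

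In the other sets nearly all FPKM came from a single form. Cox6a2 held 2.65% ± 2.03 of its set in microglia and 0.025% ± 0.031 in astrocytes (exact permutation p = 0.00117, adjusted p = 0.0021). Cox7b2 held 0% in every microglia library and 0.027% to 0.25% in astrocytes (exact permutation p = 0.00117, adjusted p = 0.0021), a share that rests on levels of at most 2.98 FPKM. The shares of Cox6b2 (3.56% ± 6.49 and 2.01% ± 1.32, exact permutation p = 0.858) and Cox8b (0.055% ± 0.13 and 0.22% ± 0.20, exact permutation p = 0.124) did not pass. WT microglia library 1 stood at 16.7% for Cox6b2 while the other 5 microglia libraries were at 0% to 1.93%.

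Other genes of the pathway were counted by list. The 13 citric acid cycle genes were all lower in microglia in both comparisons, with medians of -2.31 (WT) and -2.22 (KO). Of the mitochondrially encoded subunits, 12 of 13 were lower in both, with medians of -2.28 and -2.99. The remaining one, mt-Co1, was listed at 0 in 6 of 7 astrocyte libraries, so no fold is given for it. Of 12 subunits and carriers outside the naming rule, 10 were lower and 1 higher in both. Cycs, the cytochrome c that links complexes III and IV, was at 2.91 to 4.94 FPKM in WT microglia and 32.1 to 43.7 in WT astrocytes. The gene that was higher was Ucp2, an uncoupling protein of the inner membrane, at 460 to 885 FPKM in WT and 885 to 1009 in KO microglia, against 66.8 to 136 in WT and 53.3 to 94.9 in KO astrocytes. Cyc1 of complex III and Ndufab1 of complex I differed by -2.31 ± 0.23 and -1.36 ± 0.23 between WT cells (limma, adjusted p = 1.15e-05 and 0.000553). Usmg5, a small membrane subunit of ATP synthase, differed by -2.69 ± 0.23 (adjusted p = 3.61e-06), at 76.0 to 77.3 FPKM in WT microglia and 329 to 645 in WT astrocytes.

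Genes that build or regulate the chain did not share the size of this difference. Of all genes tested, 24.5% were lower and 29.1% higher in microglia between WT cells, and 25.1% lower and 31.9% higher between KO cells. Of 46 assembly factors tested, 19 were lower and 2 higher between WT cells (median -0.90), and 19 lower and 1 higher between KO cells (median -0.78). Ndufaf2, an assembly factor of complex I, differed by -2.86 ± 0.24 between WT cells (limma, adjusted p = 3.32e-06). Nubpl, which helps to insert iron-sulfur clusters into complex I, was higher by 2.57 ± 0.25 (adjusted p = 9.9e-06), at 35.9 to 43.7 FPKM in WT microglia and 4.21 to 6.89 in WT astrocytes. Of 10 supercomplex and cristae factors, 5 were lower in WT and 6 in KO. This list also holds Cox7a2l, which is a member as well and was not called in either. Of 11 regulators tested, 4 were higher and 2 lower between WT cells, and 3 higher and 1 lower between KO cells. Ppargc1a, the coactivator known to raise mitochondrial genes, had the smallest p: it was at 0.772, 4.86 and 0.359 FPKM in WT microglia and 161, 176 and 166 in WT astrocytes, a difference of -6.17 ± 0.62 (limma, adjusted p = 1.18e-05). Its relative Pprc1 was higher in microglia, by 2.35 ± 0.47 (adjusted p = 0.00154), and so was Nrf1, the factor whose motif is marked above, by 0.79 ± 0.29 (adjusted p = 0.0414).

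Other classes of genes set these medians in context. All protein-coding genes had a median of -0.08 between WT cells and -0.04 between KO cells. Those with a mean of at least 50 FPKM had -0.47 and -0.43. Those with at most 4126 bases of exon had -0.15 and -0.12. That limit leaves out the longest 10% of the tested members, and the median member has 1522.5 bases, so the class is not matched to the members in length. The 80 genes of cytosolic ribosomal proteins, another abundant housekeeping group with short transcripts, went the other way, with 64 called higher in microglia and a median of 1.18 between WT cells, and 64 higher, 1 lower and a median of 1.05 between KO cells.

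**Figure D4:**
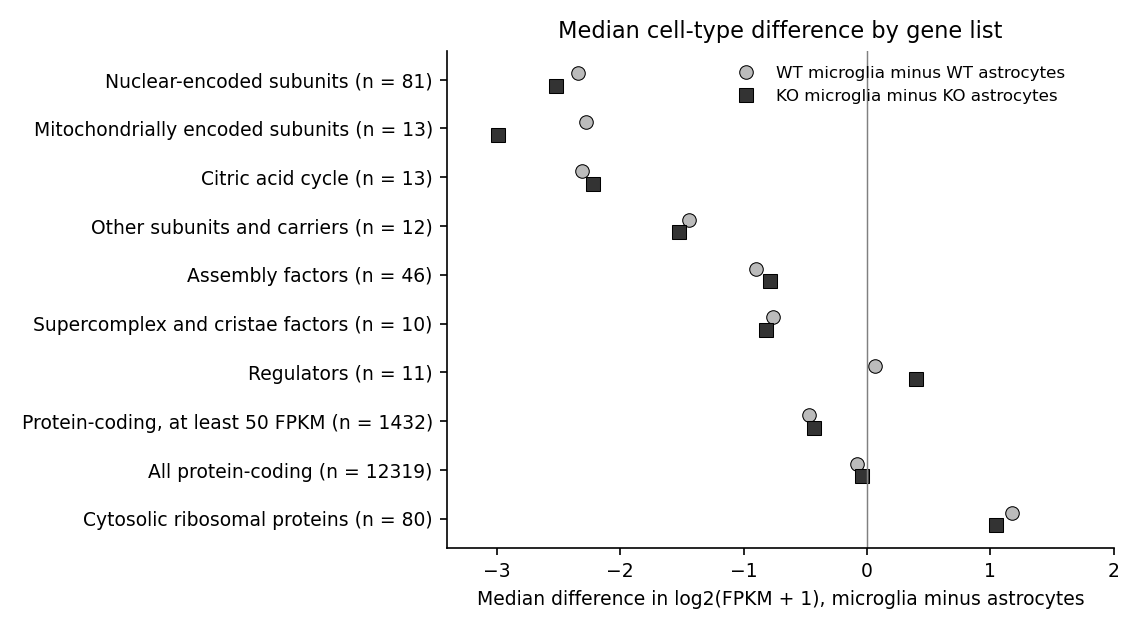
Median difference between microglia and astrocytes, in log2(FPKM + 1), of the subunit genes and of other lists, with circles for WT and squares for KO and the number of tested genes in brackets. The nuclear and mitochondrial subunits and the citric acid cycle lie near or below -2.2, all protein-coding genes near 0 and ribosomal proteins above 1.

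KO and WT microglia were compared to see whether these genes differed in microglia of mice that lack the cytokine. None of the 79 members tested was called by limma (0 of 79, smallest adjusted p = 0.448), where 0.0818% of 15889 genes were called. At an unadjusted p under 0.05 there were 7, where 7.96% of all genes reached it, and 6 of the 7 were lower in KO. The median of the 79 was -0.04 and that of all genes 0.02. The 95% interval of a member's difference reached a median of 0.61 to either side, and it lay within ±1 for 52 of the 79. The median was -0.22 without WT microglia library 3. Border macrophage and monocyte markers summed to 196 to 337 FPKM in WT and 112 to 153 in KO microglia, and oligodendrocyte markers to 1012 to 1721 and 1514 to 2459. Of the former, only S100a8 (72.3 to 124 in WT and 26.1 to 54.5 in KO) and Ccr2 (1.68 to 4.30 and 0.311 to 1.05) did not overlap. The other markers of that list overlapped between genotypes, Mrc1 at 34.8 to 80.4 in WT and 45.6 to 51.2 in KO. Neuron markers summed to 8.76 to 48.8 FPKM in WT and 4.62 to 5.74 in KO microglia, so the sum was lower in every KO library. Snap25 (7.68 to 26.4 in WT and 0.864 to 3.32 in KO) and Gad1 (0.499 to 1.49 and 0.0594 to 0.410) did not overlap, and the other neuron markers did. Syt1 and Rbfox3 had higher means in KO (0.297 and 0.629) than in WT (0.129 and 0.347). The part of these cells in the values was not tested.

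The 3 lowest p-values belonged to subunits of complex I, which has 35 of the 79 members tested, and none of them was called. Ndufa6, an accessory subunit (chr15:82350140-82354322), was at 33.7, 43.0 and 60.9 FPKM in WT and 20.2, 19.8 and 19.7 in KO microglia. Ndufs4, an accessory subunit whose loss in mice is a model of Leigh syndrome (chr13:114287795-114388258), was at 18.7, 20.3 and 18.5 in WT and 8.17, 11.6 and 11.4 in KO. Ndufs7, the core subunit that holds the last iron-sulfur cluster before ubiquinone (chr10:80249121-80256794), was at 77.1, 63.8 and 74.4 in WT and 45.6, 49.1 and 46.1 in KO. In all 3 every KO library was below every WT library. The differences were -1.12 ± 0.24, -0.84 ± 0.19 and -0.60 ± 0.14, with limma adjusted p-values of 0.448, 0.482 and 0.509. The other genes with an unadjusted p under 0.05 and a lower value in KO, named after their values were seen, were Ndufb5, Ndufa1 and Cox7c (-0.61 ± 0.15, -0.67 ± 0.19 and -0.47 ± 0.15).

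The authors' deposited table of microglia lists 3 of the 86 members among its 483 genes. Those 483 are 1.23% of all 39171 genes in the FPKM table, of which 15889 had a mean of at least 1 FPKM in microglia. Of the members 79 did, so the 1.23% is not a share matched to them in level. All 3 belong to complex I, which has 35 of the 79 members tested. In the authors' deposited table, Ndufs4 had a mean of 1091 normalised counts in WT and 539 in KO (adjusted p = 0.00038), Ndufa6 499 and 238 (adjusted p = 0.00519), and Ndufb5 668 and 433 (adjusted p = 0.031). Ndufb5 was at 38.4, 40.6 and 34.1 FPKM in WT and 26.0, 23.5 and 23.4 in KO. Its exons overlap Mrpl47 on the other strand by 616 bases. These 3 genes passed the threshold in the authors' deposited table and not in the test of FPKM, with KO lower in both.

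Complex II had the highest median, at 0.32, against -0.16 for complex I, 0.03 for complex III, -0.13 for complex IV and -0.02 for complex V. Sdha, the member with the smallest p among those higher in KO, had every KO library (51.4 to 61.2 FPKM) above every WT library (38.2 to 42.1), a difference of 0.43 ± 0.15 (limma, adjusted p = 0.581). Sdhc was at 42.2, 27.8 and 11.5 in WT and 38.4, 45.3 and 59.0 in KO, with overlap and a difference of 0.94 ± 0.47 (adjusted p = 0.642). The genotypes did not overlap, with KO lower, for 11 of 79 members (13.9%), where 7.48% of all genes did the same, and with KO higher for 1, Sdha, where 8.41% of all genes did. The 13 mitochondrially encoded genes all had negative differences (median -0.81), and 8 had an unadjusted p under 0.05, with none called.

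**Figure D5:**
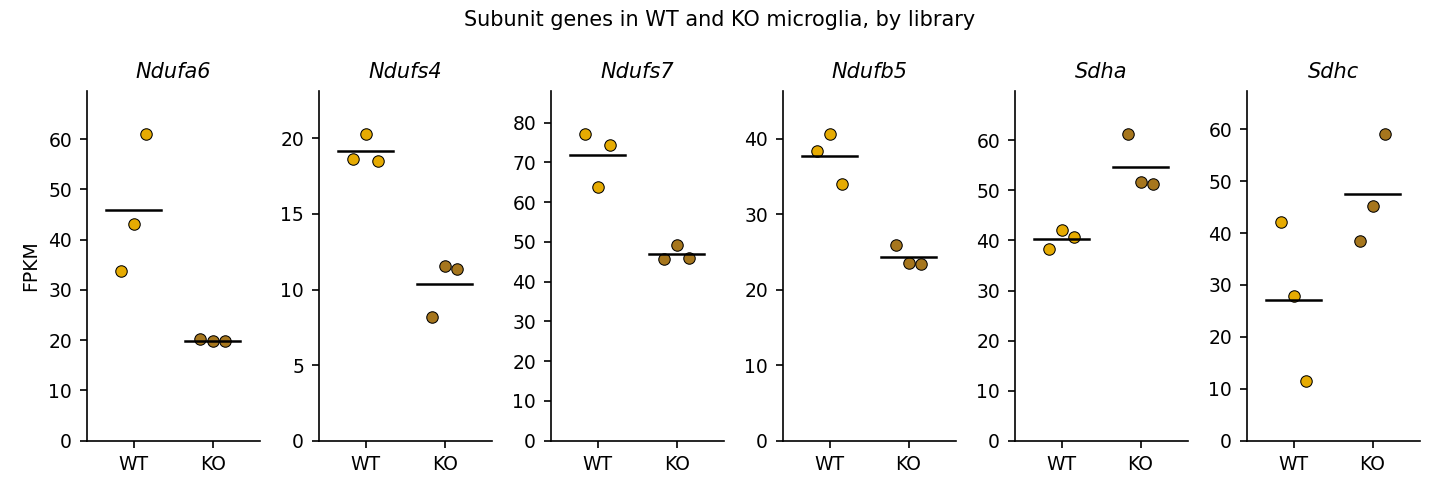
FPKM of 6 subunit genes in the 3 WT and 3 KO microglia libraries, one point per library, with a line at the group mean and each axis starting at 0. The 4 complex I genes on the left have every KO point below every WT point, Sdha has every KO point above, and Sdhc overlaps.

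In astrocytes, the source of the cytokine, no member was called between KO and WT (0 of 81, limma, smallest adjusted p = 0.921), where 0.0224% of 13397 genes were called. No member reached an unadjusted p under 0.05, where 4.19% of all genes did. The median of the members was 0.02, with complex medians from -0.03 (complex III) to 0.08 (complex IV). The median of the members had no stable sign: with a library left out it ranged from -0.032, without KO library 1, to 0.13, without either day 9 library (WT library 3 or KO library 2). It was also below 0 without WT library 1 (-0.0027) or WT library 2 (-0.032). The interval of the difference lay within ±1 for 74 of the 81. The smallest p-values were those of Ndufc2 (-0.27 ± 0.13), Ndufs7 (0.38 ± 0.19) and Ndufb4 (0.33 ± 0.17). Ndufs8, a core subunit, was the only member whose groups did not overlap with KO higher (2.32% of all genes), at 93.6, 114 and 113 FPKM in WT and 126, 135, 119 and 176 in KO. Ndufa6 was at 127, 97.8 and 75.9 in WT and 83.8, 75.7, 73.4 and 119 in KO astrocytes, and Ndufs4 at 47.9, 55.8 and 49.1 and 67.3, 33.8, 60.7 and 47.3, with overlap in both. The authors' deposited table of astrocytes lists 10 genes (0.0255% of the genes in the FPKM table), and 0 of them are members.

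Whether the genotype difference itself differed between the cell types was tested as an interaction in the fit of all 13 libraries. No member was called (0 of 81, limma, smallest adjusted p = 0.426), where 0.141% of 16258 genes were called, and 6 had an unadjusted p under 0.05, where 6.62% of all genes did. Ndufs7 had the smallest p of the members, with a difference of -0.60 in microglia and 0.38 in astrocytes and an interaction of -0.98 ± 0.25 (adjusted p = 0.426). For Ndufs4 the interaction was -0.80 ± 0.30, for Ndufa6 -0.91 ± 0.34 (adjusted p = 0.709 for both) and for Sdha 0.53 ± 0.21 (adjusted p = 0.738).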

How the data were processed

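Per the labels' protocols, RNA of sorted cells was extracted with TRIZOL, DNase-treated, column-purified and made into libraries with NuGEN RNA-Seq V2. The submitters' processing notes name the build GRCm38 and, among the tools, Bowtie2 2.2.3 and TopHat2 2.0.11, Cufflinks and Cuffnorm, HTSeq 0.6.1p1, FastQC and DESeq2. Settings, annotation and strand were not stated in any source used. The authors deposited FPKM for 39171 genes in 13 libraries, scaled by a method that is not stated. Tables for each cell type hold, per the file headers, genes that the authors list with their normalised signal (mean normalised counts) per genotype, log2 fold change, test score (Wald statistic), p-value and adjusted p. Absolute depth is unknown, so no counting interval was computed.

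GENCODE release 21 (GRCm38) held 37691 identifiers (96.2%) and gave symbols, coordinates and overlaps. RefSeq promoters are from GRCm38.p6. limma 3.58.1 (R 4.3.3, lmFit, eBayes with a trend, two-sided, Benjamini-Hochberg over all genes, threshold 0.05) was run on log2(FPKM + 1), which understates changes of low genes, for genes with a mean of at least 1 FPKM over the fitted libraries. Microglia and astrocytes were fitted alone for the genotype, and all 13 libraries together for cell type and interaction, with postnatal day as a covariate wherever astrocytes entered. The scripts were tested on simulated data. Alternatives covered the pseudocount, the filter, scaling, left-out libraries, the replicate block, the age covariate and the fitted groups. Members, lists, markers and tests were chosen with earlier results of these data known. Named members are the 3 smallest p per direction and comparison, the 5 most abundant per cell type, members under 1 FPKM, paralog sets, core subunits and those in the authors' tables; of other lists, those with the smallest adjusted p and a few singled out after their values were seen (Cyc1, Ndufab1, Usmg5, Ucp2, Nrf1). Ndufs5 and Uqcrh were added for their promoters.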

Additional observations from a re-analysis of the deposited data

Results flagged for a closer look

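In the 4 KO astrocyte libraries, the only group large enough to look for single libraries that stand apart, 81 members and 9 shares were examined, and 8 members had a library whose gap to the nearest of the others took up more of the whole range than Dixon's 95% critical value allows. Chance flags about 1 in 20 such groups. In 4 of the 8 the library was KO astrocytes 2, the day 9 library, which was the low one: Atp5d at 265 FPKM (others 414 to 443), Cox4i1 at 1037 (others 1538 to 1615), Cox7c at 421 (others 567 to 594) and Ndufa9 at 59.6 (others 93.8 to 96.6). Library 1 was the high one for Cox7b, at 1900 FPKM (others 1223 to 1318), and for Ndufa7, at 304 (others 216 to 224). Library 4 was the high one for Ndufa8, at 151 FPKM (others 90.0 to 93.1), and for Cox7a1, at 41.5 (others 16.2 to 18.9). Cox7a1, the heart and muscle form of the subunit, was also uneven in WT astrocytes.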

How the results depend on the processing

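Members called lower in microglia numbered 74 to 78 between WT cells under all alternatives but the rescaling without mitochondrial and small RNA genes, which left 60 of 81, and 74 to 79 between KO cells. No member was called between genotypes, or in the interaction, under any alternative run. Members called higher in WT microglia numbered 0 to 1 with a library left out, 1 without postnatal day and 2 after rescaling without mitochondrial and small RNA genes, and in KO microglia 0 with quantile normalisation. The median difference between WT cells ranged from -2.48 to -2.19 with a library left out. It was -1.18 after that rescaling, -2.53 with quantile normalisation, -2.01 and -2.16 scaled to the sum or the median ratio of nuclear protein-coding genes (both chosen after seeing the data), and -2.23 with only the 2 groups compared. Between KO cells it was -1.85 after the rescaling and -2.15 scaled to the protein-coding sum. The median between genotypes ranged from -0.22 to -0.028 in microglia with a library left out and was -0.23 after the rescaling, and in astrocytes it ranged from -0.032 to 0.13 with a library left out and was 0.33 after the rescaling.

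Shares cannot pass the threshold within 1 genotype, where the smallest adjusted p was 0.15 (WT) and 0.0857 (KO). The differences were 13.6 and 17.5 percentage points in WT and in KO for Atp5g2, -13.8 and -18.8 for Atp5g3, 1.90 and 3.34 for Cox6a2, -37.3 and -31.1 for Cox7a2, 44.7 and 36.5 for Cox7a2l, and -0.18 and -0.094 for Cox7b2. For Atp5g1 the difference of 0.40 ranged from -0.87 to 2.70 with a library left out and was -0.54 in day 12 libraries. For Cox6b2 it ranged from -1.08, without WT microglia library 1, to 2.27, and was -0.77 in KO. Cox8b ranged from -0.22, without KO microglia library 3 (adjusted p = 0.0195), to -0.12.

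Single members that changed sign were not called as reported. Between WT cells Cox7a2l was at 1.13 after the rescaling (adjusted p = 0.0277), 0.30 and 0.15 under the protein-coding scalings, 0.040 with the replicate block, 0.020 without postnatal day, 0.16 with only the 2 groups, and from -0.51 to 0.24 with a library left out (0.16 for each of 2 others). Between KO cells it was at 0.19 after the rescaling. Cox6b2 in WT was at 0.049 after the rescaling and from -2.10 to 0.29 with a library left out (0.16 for another). Between astrocyte genotypes, Ndufc2 and Cox7a2 were at 0.038 and 0.027 after the rescaling. The cause of these changes was not tested. After the rescaling Atp5g2 was at -0.22 in WT (adjusted p = 0.665) and -0.31 in KO (adjusted p = 0.486).

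Deviations of same-numbered libraries from their group means had small correlations, from -0.079 to 0.028. Between microglia genotypes those of same-numbered libraries were 0.0277, 0.0124 and 0.0227, and those of other pairs ran from -0.0208 to -0.000447. Values this small from so few libraries cannot decide whether the numbers pair them. With the replicate block, 76 members were lower in WT and 77 in KO, and 0 were called between genotypes. Over all genes, calls between microglia genotypes numbered 13, from 3 with the block to 48 without KO microglia library 1. Those between astrocyte genotypes numbered 3 (0 to 8 under the alternatives) and those of the interaction 23 (15 to 75). Relative depth in astrocytes was at most 63.0% of that of the deepest microglia library. If the steps of the low values follow sequencing depth, depth limits low genes most in astrocytes.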
